A study of Mus musculus with 46 samples.

Results

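Cadherins and protocadherins of the mouse dorsal raphe nucleus were followed as 51 genes of the 15499 measured. A gene was taken when its symbol begins with Cdh or Pcdh, when it lies on an autosome, and when its mean count, both alleles added, was 20 or more at P5, P15 or in adults. Of 60 genes with a fitting name, 2 were left out as X-linked (Pcdh11x and Pcdh19) and 7 because their mean count was under 20 at every age (Cdh1, Cdh15, Cdh26, Cdhr2, Cdhr5, Pcdh12 and Pcdhb2). Pcdhb15 was just inside the minimum with a mean count of 20.7 in adults, and Pcdhb2 just outside it with 17.2. The members are 2 type I and 13 type II classical cadherins, the truncated cadherin Cdh13, 4 other cadherins, 9 protocadherins outside the clusters and 22 clustered protocadherins.

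All libraries came from female F1 hybrids of the C57 and CAST mouse strains, bred in reciprocal crosses labelled F1i and F1r. Each cross had 9 adult libraries and 7 from each of P5 and P15, postnatal days 5 and 15. RNA was sequenced, and the tables give a C57 count and a CAST count for each gene and library. The labels leave out the age of the adults, the direction of mating behind F1i and whether each library is a separate animal, so p-values measure the spread between these libraries.

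Cadherins are calcium-dependent adhesion proteins of the cell membrane. Classical cadherins bind their own kind across the cell contact and hold catenins inside, which link them to actin. Type II cadherins are known for labelling groups of neurons that sort and wire together. Protocadherins lack the catenin site. The delta protocadherins are single genes known for roles in axon growth and synapse loss, whereas the clustered alpha, beta and gamma protocadherins stand in tandem arrays from which each neuron uses a few, which lets its own branches recognise and avoid each other. Many of the clustered genes, though not all, are known to be chosen separately on the maternal and the paternal chromosome in single neurons. Such a choice cannot be seen in tissue RNA that pools many cells.

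Library totals ran from 5100560 to 10319139 counts at P5, from 3692778 to 8032987 at P15 and from 4912934 to 13085952 in adults. Markers of serotonin neurons were present at every age, with a summed level of 296 to 453 CPM (counts scaled to equal library totals) at P5, 754 to 1265 at P15 and 861 to 1247 in adults for 5 of 6 names. The oligodendrocyte markers Mbp, Mag and Mobp summed to 738 to 1434 CPM at P5, 8321 to 14878 at P15 and 3676 to 6137 in adults. The level of GC-rich transcripts also differed by library. The trend was measured on log2 levels relative to each gene's mean over all libraries. This relative level rose by 0.18 to 0.30 for each 10 points of GC content in P5 libraries. It changed by -0.44 to -0.02 in P15 libraries and by -0.47 to 0.16 in adult libraries, with adult F1i library 1_1 the lowest. Since the trend differs with age, a correction for it cannot be told apart from removing age changes tied to GC content. Changes with age are given without a correction for this trend, and also with one, which removes the trend from each library, where the correction adds or ends a call, turns the direction or moves the value by over 1.5 times.

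The tables hold 1 alpha identifier, named Pcdha11, and 1 gamma identifier, named Pcdhgc4. Genes of each of these clusters share constant exons, so both counts may hold reads of other cluster genes. Beta protocadherins are related single-exon paralogs with similar stretches, and how reads matching several of them were handled is not stated, so the split of counts among them is uncertain.

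Between P5 and P15 the summed level of the members fell, as a share of all counts and without the GC correction, though not every member fell. The summed level of all 51 genes was 3756 to 3933 CPM at P5, 2253 to 2568 at P15 and 2121 to 2363 in adults, so the P5 libraries lay apart from both later ages. In the edgeR quasi-likelihood test, 11 of 51 members were higher at P15 than at P5 and 23 were lower, while 42.5% and 40.9% of all 13637 genes tested were called in these directions (83.4% in either). Of the members, 21.6% rose and 45.1% fell. With the GC correction 8 members were higher and 33 lower (15.7% and 64.7% of members, beside 44.4% and 37.6% of 13266 genes, 82.0% in either direction). The median log2 change of the members was -0.14, or -0.37 with the GC correction, and that of all genes was 0.02 and 0.06.

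Classical cadherins of type I, which carry the strongest adhesion in early brain tissue, both fell between P5 and P15. Cdh4 (R-cadherin) ranged from 138.9 to 188.8 CPM at P5 (median 164), from 15.7 to 36.4 at P15 (median 25.2) and from 22.7 to 37.5 in adults (median 32.8). No P15 or adult library came near the P5 range. The log2 change from P5 to P15 was -2.72 ± 0.09 (SE; edgeR adjusted p = 4.6e-31), or -2.43 with the GC correction. Cdh2 (N-cadherin) fell from 189 ± 7.4 CPM (SD, n = 14) to 102 ± 12 (n = 14) and stood at 139.8 ± 7.1 in adults (n = 18). These n hold for every mean over an age below. Its adult libraries lay between the other ages, above nearly all of the P15 range of 88.1 to 127 CPM, and the rise from P15 to adult was 0.51 ± 0.04 on the log2 scale (edgeR adjusted p = 5.3e-15).

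Of 13 type II cadherins, 4 were higher and 6 lower at P15, and 3 were not called; with the GC correction 3 were higher and 8 lower. Cdh24 ranged from 122 to 148 CPM at P5 (median 137), from 22.6 to 50.7 at P15 and from 17.3 to 36.8 in adults. Its log2 change to P15 was -2.15 ± 0.10 (edgeR adjusted p = 2.5e-24) and -1.36 with the GC correction; Cdh24 transcripts are 61.2% GC. Cdh22, 62.7% GC, shows the widest gap between both scales, with a change of -1.55 ± 0.11 that became -0.65 ± 0.06 once the GC trend was removed (edgeR adjusted p = 3.1e-18 and 1.7e-14). Its P15 range of 9.54 to 23.7 CPM stayed below both the P5 range of 39.9 to 52.3 and nearly all of the adult range of 21 to 38.9.

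Cdh5 (VE-cadherin), the cadherin of blood vessel endothelium, fell by 1.73 on the log2 scale (edgeR adjusted p = 1.7e-19). From P15 to adult it did not pass the test (-0.02 ± 0.11, edgeR adjusted p = 0.86), nor with the GC correction (-0.13, edgeR adjusted p = 0.27). It ranged from 38.1 to 47.7 CPM at P5, 7.42 to 25.8 at P15 and 9.82 to 15.5 in adults. The 4 endothelial markers Pecam1, Cldn5, Flt1 and Tek, all in the tables, summed to 104 to 116 CPM at P5, 72.7 to 124 at P15 and 50.0 to 65.6 in adults, and their part in the result was not tested. In bulk tissue, fewer cells of a type and less RNA per cell cannot be told apart.

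Cdh19, a type II cadherin known from Schwann cell and oligodendrocyte lineages, moved the other way and by the widest margin of all members. It ranged from 0.155 to 1.21 CPM at P5, a mean of 3.29 counts a library, and from 15 to 27.8 CPM at P15. The log2 change was 5.20 ± 0.16 (edgeR adjusted p = 2.3e-32). A further rise of 0.34 ± 0.08 (edgeR adjusted p = 0.00019) brought adults to 20.02 to 36.9 CPM, and was 0.55 with the GC correction, although the oligodendrocyte markers given above were lower in adults than at P15; their part in the result was not tested. Cdh9 (log2 change 0.52 ± 0.08) was higher at P15 on both scales, with 0.19 after the GC correction. Cdh10 (0.49 ± 0.12) was called only without that correction, after which it was 0.02 (edgeR adjusted p = 0.90). Cdh7 (0.17 ± 0.05, edgeR adjusted p = 0.0039) turned to -0.12 (edgeR adjusted p = 0.023).

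Cdh13 is the one cadherin held in the membrane by a lipid anchor instead of a membrane-spanning segment. It had the highest level of all members per kilobase of transcript, 156 CPM per kb at P5, 108 at P15 and 79.2 in adults. Per-length levels compare genes only roughly, since how reads were given to an allele is not stated. Cdh13 ranged from 668 to 763 CPM at P5 (median 709), 431 to 549 at P15 (median 502) and 316 to 385 in adults (median 366), 3 ranges that do not overlap. It fell by 0.56 and then by 0.39 on the log2 scale (edgeR adjusted p = 1.7e-19 and 2.0e-14).

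Among other cadherins, Cdhr1, known as a photoreceptor cadherin, showed the largest fall. It ranged from 18.2 to 24.4 CPM at P5, 1.93 to 5.77 at P15 and 1.32 to 3.27 in adults. The log2 change to P15 was -2.80 ± 0.10 (edgeR adjusted p = 1.7e-30), and Cdhr1 fell again in adults by 0.46 (edgeR adjusted p = 0.00075). Cdh23, a partner of Pcdh15 in the tip links of inner ear hair cells, fell by 2.09 to P15 (edgeR adjusted p = 1.1e-24) and by 1.64 with the GC correction. Pcdh15 was not called at that step (-0.03 ± 0.05, edgeR adjusted p = 0.60), but was called lower with the GC correction (-0.21, edgeR adjusted p = 9.9e-06).

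Averaged over the crosses, Cdhr3 and Cdhr4 were called higher at both steps. Cdhr3, known from ciliated airway cells as the receptor of rhinovirus C, had medians of 22.4 CPM at P5, 35.7 at P15 and 38.7 in adults, with overlapping ranges of 19.3 to 26.9, 20.8 to 44.6 and 29.1 to 52.3. Its log2 changes were 0.55 ± 0.08 and 0.27 ± 0.07 (edgeR adjusted p = 3.2e-08 and 0.00079). From P15 to adult its mean went from 31.1 to 42.1 CPM in F1i, but from 37.0 to 36.5 in F1r. The mean of Cdhr4 went from 39.7 to 59.5 CPM in F1i and from 44.9 to 50.9 in F1r. Whether the crosses differ in this step was not tested. Cdhr4 had medians of 22.4, 40.7 and 54.6 CPM, with a P5 range of 16.9 to 28.5 below the P15 range of 30.9 to 51.5. The log2 changes of Cdhr4 were 0.92 ± 0.08 and 0.44 ± 0.07 (edgeR adjusted p = 2.8e-14 and 4.9e-07), and 1.21 and 0.25 with the GC correction. The 2 ependymal markers Foxj1 and Ccdc153, both in the tables, summed to 139.5 to 185 CPM at P5, 112 to 255 at P15 and 139.7 to 286 in adults, and their part in these changes was not tested. Singly they moved in opposite directions from P5 to P15. The mean of Foxj1 went from 95.8 to 77.0 CPM and that of Ccdc153 from 63.8 to 113.

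**Figure D1:**
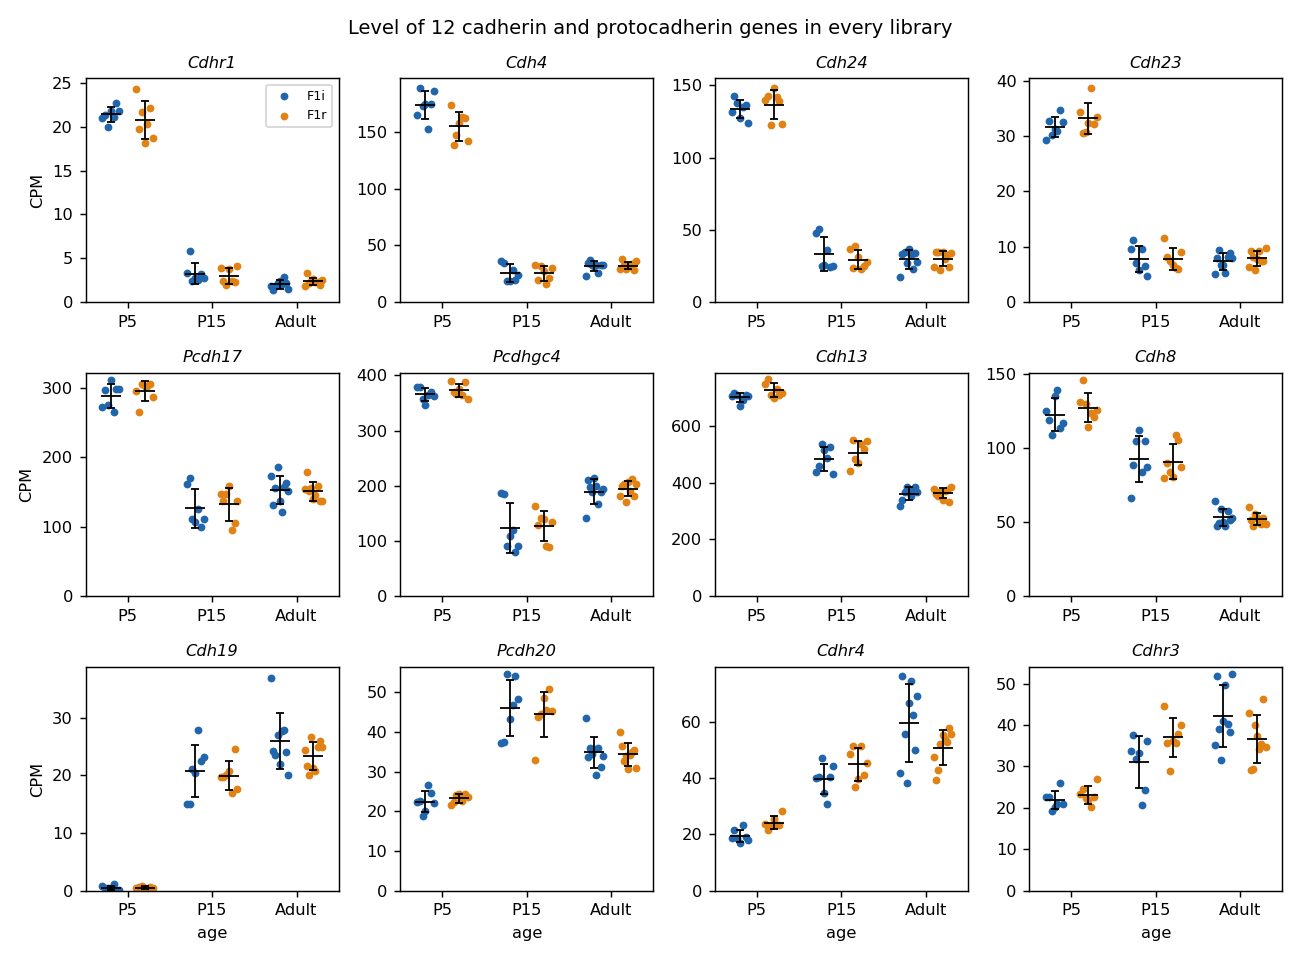
Level in CPM (y axis, starting at 0) of 12 members by age (x axis), 1 point for each library, blue for F1i and orange for F1r, with the mean ± SD of each cross in black. Cdhr1, Cdh4, Cdh24 and Cdh23 drop after P5, Cdh13 and Cdh8 step down at both ages, and Cdh19, Cdhr4 and Cdhr3 rise after P5.

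All 4 delta-2 protocadherins, which recruit the WAVE actin regulators in growing axons, were lower at P15 than at P5. Pcdh17 fell from 265 to 310 CPM at P5 (median 297) to 95.5 to 169.6 at P15 (median 131), a log2 change of -1.21 ± 0.08 (edgeR adjusted p = 4.0e-20). Pcdh10 changed by -0.90 ± 0.06 and Pcdh18 by -0.95 ± 0.05. Pcdh8, an activity-regulated member, changed by -1.84 ± 0.11, or by -1.19 once the GC trend was removed. The GC correction made the changes of Pcdh17, Pcdh10 and Pcdh18 larger (-1.35, -1.13 and -1.10).

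Delta-1 protocadherins carry a cytoplasmic site for protein phosphatase 1. Pcdh1 fell by 1.72 (edgeR adjusted p = 1.2e-18), or by 0.98 with the GC correction. Pcdh7 fell by 0.77 (edgeR adjusted p = 2.1e-16), while Pcdh9 was not called (-0.01 ± 0.05, edgeR adjusted p = 0.81) and was called lower only with the correction (-0.28). Pcdh20, outside both delta groups, ranged from 18.9 to 26.5 CPM at P5 and from 33.0 to 54.5 at P15, without overlap. It rose by 0.95 ± 0.06 (edgeR adjusted p = 4.4e-19), the second largest rise after Cdh19 without the GC correction. With it Pcdh20 rose by 0.65, less than the 1.21 of Cdhr4.

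Of 20 beta protocadherins 4 were higher, 4 lower and 12 not called at this step, and with the GC correction 2 were higher, 10 lower and 8 not called. Their median log2 change was -0.05, or -0.20 with the correction, against -0.56 and -0.73 over the 29 members outside the clusters. Their summed level was 279 ± 8.4 CPM at P5, 280.1 ± 36 at P15 and 236 ± 17 in adults. Pcdhb10 rose (0.47 ± 0.08, edgeR adjusted p = 1.2e-06) and Pcdhb4 fell (-0.52 ± 0.08, edgeR adjusted p = 2.1e-07). Pcdhgc4 fell from 346 to 389 CPM at P5 to 80.5 to 186 at P15, a change of -1.59 ± 0.09 (edgeR adjusted p = 1.8e-21). Pcdhgc4 is the gamma isoform known to be needed for the survival of nerve cells. Since the count may hold reads of other gamma genes, the fall cannot be assigned to that isoform alone. The difference of Pcdhgc4 from the beta genes was not tested.

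From P15 to adult, 12 members rose and 27 fell, where 37.0% and 37.7% of 13637 genes were called higher and lower (74.7% in either direction). The members' shares were 23.5% and 52.9%, and with the GC correction 14 rose and 26 fell (27.5% and 51.0%, beside 34.9% and 40.7% of 13266 genes, 75.6% in all). Both age steps use the same P15 libraries, so a low or high P15 value enters both. Type II cadherins supplied 9 of the falls, or 10 with the correction. Cdh8 went from 66.3 to 112 CPM at P15 to 47.4 to 64.6 in adults, without overlap, after a P5 range of 108.7 to 146. The log2 change was -0.73 ± 0.06 (edgeR adjusted p = 1.3e-16). Cdh9 (-0.83 ± 0.07), Cdh11 (-0.68 ± 0.05), Cdh7 (-0.64 ± 0.05), Cdh6 (-0.63 ± 0.08), Cdh10 (-0.60 ± 0.11) and Cdh12 (-0.50 ± 0.12) fell with it, where the changes of Cdh10 and Cdh12 were -0.33 and -0.31 with the GC correction. Cdh22 was an exception, with a rise of 1.03 ± 0.10 (edgeR adjusted p = 1.7e-12), or 0.70 with the GC correction.

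Pcdh15 dropped from 78.5 to 106 CPM at P15 to 36.5 to 62.8 in adults (log2 change -0.81 ± 0.05, edgeR adjusted p = 3.5e-20). Beta protocadherins were mostly lower in adults, with 12 of 20 called lower and 1 called higher, or 10 and 3 with the GC correction. Pcdhb10, which had risen to P15, fell by 0.63 (edgeR adjusted p = 2.1e-10). The gene that rose without the correction was Pcdhb1 (0.75 ± 0.15, edgeR adjusted p = 1.7e-05), one of the sparsest members with a mean of 9.79 counts a library at P5 and 25.8 in adults. Pcdhgc4 (0.67 ± 0.09), Pcdh1 (0.48 ± 0.11), Pcdh7 (0.44 ± 0.06), Cdh4 (0.37 ± 0.09) and Pcdh17 (0.29 ± 0.07) rose in adults after their falls to P15. With the GC correction these rises were 0.50, 0.18, 0.49, 0.19 and 0.34.

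**Figure D2:**
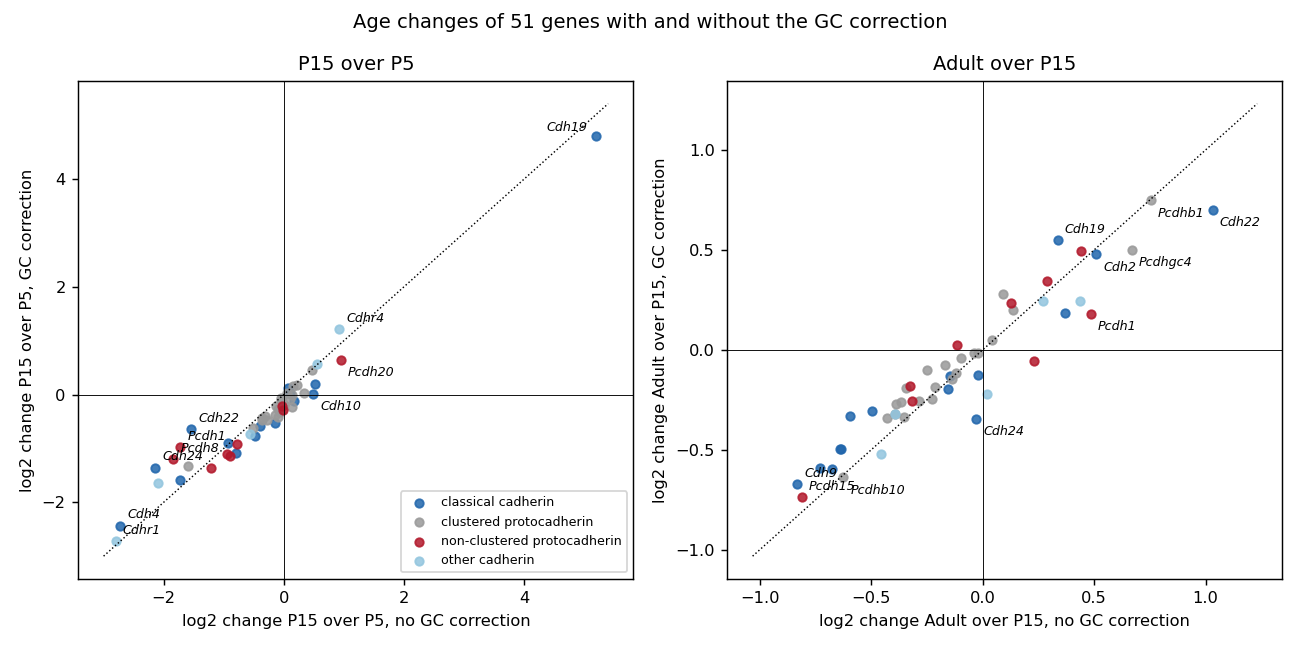
Log2 change of each of the 51 members from P5 to P15 (left) and from P15 to adult (right), without (x axis) and with (y axis) the GC correction; the dotted line marks equal values. Cdh22, Cdh24, Pcdh1 and Pcdh8 lie above the line on the left, with smaller falls after correction, and most clustered protocadherins (grey) lie near 0.

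Promoter windows of RefSeq (build GRCm38.p6) were matched by symbol for 22 of the 51 members, 25 windows in all. The 250 bases before the start site were searched for GGGCGG on both strands, the GC box, which binds Sp factors. It is in 32.7% of all 32851 windows of the table and in 28.0% of the members' windows. Of the 11 members with a window that were lower at P15, 7 held it (Cdh22, Cdh24, Cdh6, Cdh8, Pcdh10, Pcdh17 and Pcdh18). None of the 8 windows of the 6 members higher at P15 held it (Cdh10, Cdh7, Cdh9, Cdhr3, Cdhr4 and Pcdh20; 3 windows belong to Cdh7). The median number of CG dinucleotides was 20 in windows of the lower and 3 in those of the higher members, against 6 over all windows. With the GC correction of the levels, Cdh10 and Cdh7 were no longer called higher and Cdh20 was. The correction also added Cdh12, Cdh7, Pcdh15 and Pcdh9, none with a GC box, to the lower members, so that 7 of 15 held it. By window this was 7 of 18 (38.9%), beside 63.6% without the correction and 32.7% of all windows. The medians were then 15 and 3 CG dinucleotides in windows of lower and higher members. A match is a description of the letters in the window, and the difference was not tested. Shown are the 2 members with a single window that fell most to P15 and the 2 that rose most, 5′ to 3′ up to the base before the start site, with GC boxes in capitals: Cdhr1 (chr14:37098348-37098597, minus strand), Cdh24 (chr14:54641365-54641614, minus strand), Pcdh20 (chr14:88471397-88471646, minus strand) and Cdhr4 (chr9:107992207-107992456, plus strand).
Cdhr1: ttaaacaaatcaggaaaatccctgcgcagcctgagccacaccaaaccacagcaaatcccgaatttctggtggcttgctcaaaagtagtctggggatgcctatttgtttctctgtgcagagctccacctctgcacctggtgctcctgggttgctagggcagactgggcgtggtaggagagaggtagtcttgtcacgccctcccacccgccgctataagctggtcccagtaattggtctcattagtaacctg
Cdh24: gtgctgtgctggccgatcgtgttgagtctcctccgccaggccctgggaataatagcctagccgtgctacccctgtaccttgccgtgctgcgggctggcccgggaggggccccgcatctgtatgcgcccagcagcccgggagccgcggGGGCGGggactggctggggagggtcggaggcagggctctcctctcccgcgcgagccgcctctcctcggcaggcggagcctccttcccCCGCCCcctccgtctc
Pcdh20: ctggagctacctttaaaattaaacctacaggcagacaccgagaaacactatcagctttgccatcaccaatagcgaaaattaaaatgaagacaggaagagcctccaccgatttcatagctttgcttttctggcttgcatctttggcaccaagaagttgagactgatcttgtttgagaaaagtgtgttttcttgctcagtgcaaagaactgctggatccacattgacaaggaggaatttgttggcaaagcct
Cdhr4: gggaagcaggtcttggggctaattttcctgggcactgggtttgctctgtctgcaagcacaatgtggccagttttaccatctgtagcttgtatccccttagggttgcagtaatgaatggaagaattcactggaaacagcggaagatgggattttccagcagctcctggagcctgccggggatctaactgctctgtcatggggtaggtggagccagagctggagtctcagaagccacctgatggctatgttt
Cdh24 carries 2 GC boxes and 22 CG dinucleotides in a window of 72.8% GC. The window of Cdhr1, which fell further, has no GC box and 6 CG dinucleotides, and those of Pcdh20 and Cdhr4 have 3 and 2.

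Genes that work with cadherins were followed in 5 lists, whose counts can be read against the same all-gene shares as above. Of 13 catenins and junction partners tested, 2 were higher and 11 lower at P15. Beta-catenin (Ctnnb1), the core link to the cytoplasm, fell by 0.33, while the alpha-catenin Ctnna1 rose by 0.56 ± 0.04 as the neuronal form Ctnna2 fell by 0.69. Of 13 large and atypical cadherins, which include the Fat, Celsr and calsyntenin genes, 1 was higher (the desmosomal Dsg2, 1.33 ± 0.11) and 12 were lower, with a median of -1.13, or -0.64 with the GC correction. In adults 9 of these 13 were higher than at P15 and 2 lower, with the largest rises for Ret (1.25 ± 0.07), a receptor with cadherin repeats, and Clstn1 (1.03 ± 0.10). With the GC correction these counts were 8 and 3.

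Of 14 signalling partners of protocadherins 3 were higher and 9 lower at P15, and 7 and 4 in adults (8 and 4 with the GC correction). Wasf1, a WAVE subunit that delta-2 protocadherins recruit, fell by 1.66 and then rose by 0.75. Of 7 proteases that cut cadherins 2 were higher and 4 lower at P15, and 3 and 2 in adults, which with the GC correction became 2 and 3 at each step. Of 13 regulators of the protocadherin clusters 2 were higher and 9 lower at P15, and 5 and 3 in adults (1 and 10, then 7 and 3, with the GC correction). Ctcf, which folds the clusters so that a promoter meets its enhancer, fell by 0.68 to P15 (edgeR adjusted p = 4.1e-08) and was -0.03 ± 0.10 from there. The methyltransferase Dnmt3b, known to mark cluster promoters, fell by 0.99 and by 0.52.

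Allele use is given as the CAST share of a gene's counts, and tested as the strain effect, which is log2 of CAST counts over C57 counts with equal weight for both crosses. Over all members together the share was near even, 50.5% to 52.1% in every one of the 46 libraries. Single genes departed from it. The CAST allele was called higher for 20 of 48 members tested at P5, 18 of 48 by P15 and 17 of 51 in adults, and the C57 allele for 14, 12 and 14. Among all genes tested, the CAST allele was called for 31.5%, 31.1% and 35.9% and the C57 allele for 26.9%, 27.3% and 31.9% (either allele 58.4%, 58.4% and 67.8%). The members' shares were 41.7%, 37.5% and 33.3% for CAST and 29.2%, 25% and 27.5% for C57, near this background. With DESeq2 the P5 calls of members fell to 8 and 9, which cannot be set against the all-gene shares above, since those are from edgeR. Of 47 members tested at all 3 ages, 18 (38.3%) were called in 1 direction at every age, against 39.1% of 11649 genes.

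The largest strain effects lay in the beta protocadherin cluster. Called effects of 0.5 log2 units or more were found for 6 members at P5, 9 at P15 and 9 in adults, and all of them but Cdhr4 were beta protocadherins. Such effects made up 14.6%, 15.9% and 16.0% of all genes tested and 12.5%, 18.8% and 17.6% of members. Pcdhb6 had a CAST share of 66.7% to 76.2% at P5 (median 70.0%), 61.2% to 80.2% at P15 (median 71.0%) and 63.9% to 80.2% in adults (median 74.8%). CAST was the higher allele in each of the 46 libraries, and the strain effect was 1.29 ± 0.07, 1.25 ± 0.08 and 1.54 ± 0.05 (edgeR adjusted p = 1.6e-21, 9.9e-19 and 3.7e-24).

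Its neighbours along the chromosome leaned the same way. Pcdhb5 had a CAST share of 57.4% to 74.1% at P5, 65.3% to 82.8% at P15 and 61.6% to 75.1% in adults, with strain effects of 0.92 ± 0.07, 1.32 ± 0.08 and 1.15 ± 0.05. Pcdhb4, on the other side of Pcdhb5, had 0.71 ± 0.09, 0.72 ± 0.12 and 1.13 ± 0.08. Pcdhb7 followed at 0.24, 0.52 and 0.52. In the order of the cluster these 4 genes, all CAST-high at each age, are adjacent, and their nearest tested neighbour before them, Pcdhb3, was C57-high at P5 and in adults (-0.26 ± 0.07 and -0.24 ± 0.06).

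Further along the cluster the direction turned. Pcdhb14 had strain effects of -0.58 ± 0.13, -0.53 ± 0.13 and -0.68 ± 0.09, and Pcdhb16 of -0.59 ± 0.14, -0.45 ± 0.14 and -0.82 ± 0.10 at P5, P15 and in adults. Pcdhb15 between them was tested only in adults and had -0.70 ± 0.17 (edgeR adjusted p = 0.00042). The CAST share of Pcdhb16 was 24.2% to 58.6% at P5, 28.6% to 54.3% at P15 and 25% to 44.4% in adults, a wide range that rests on a mean of 34.3, 29.4 and 40.1 counts a library. Pcdhb17 (-0.24 ± 0.09 at P15, -0.31 ± 0.06 in adults) and Pcdhb20 (-0.25 ± 0.05, -0.33 ± 0.06, -0.32 ± 0.05) also favoured C57. Pcdhb18, next to Pcdhb17, favoured CAST at 0.36 ± 0.08, 0.55 ± 0.07 and 0.94 ± 0.05. Reads of one paralog given to another, or a bias of the mapping towards 1 strain, could not be told apart from these differences with the tables used here.

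**Figure D3:**
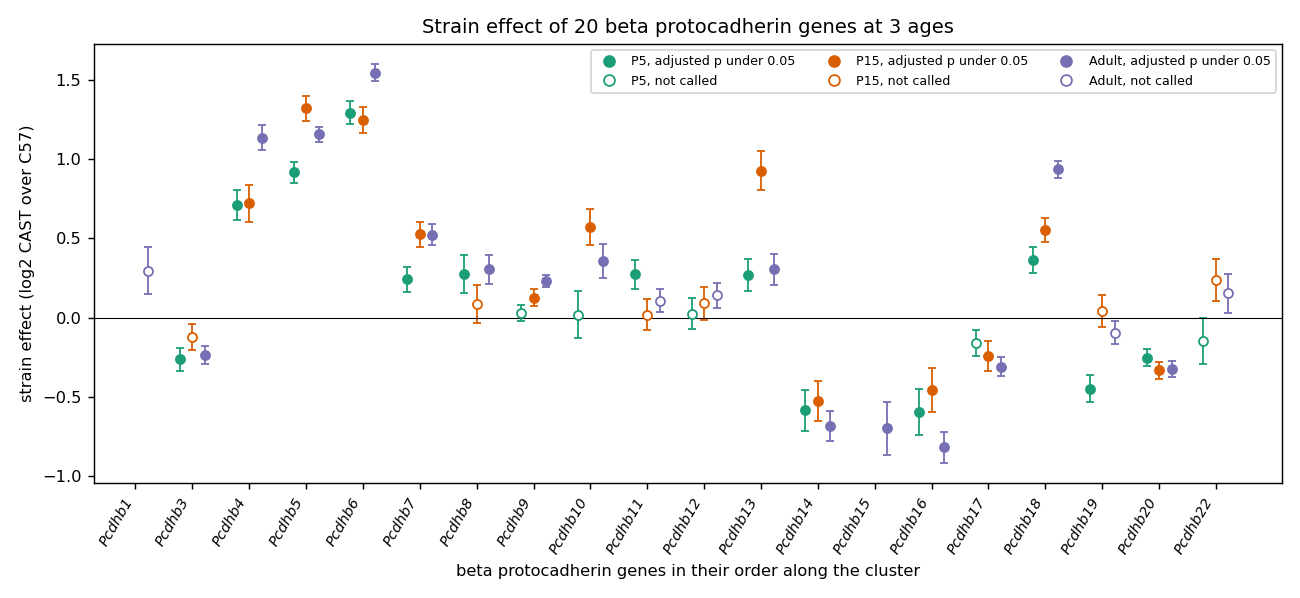
Strain effect (y axis, log2 CAST over C57) of 20 beta protocadherin genes in their order along the cluster (x axis, evenly spaced), at P5, P15 and in adults; bars are ± 1 SE and filled points passed the test. Pcdhb4 to Pcdhb7 are above 0 and Pcdhb14 to Pcdhb17 below 0 wherever they were tested.

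Outside the clusters, Cdh13 had a CAST share of 53.7% to 56.1% at P5, 53.3% to 58.0% at P15 and 55.7% to 57.7% in adults. CAST was the higher allele in all 46 libraries, and the strain effect of 0.29 ± 0.01, 0.34 ± 0.02 and 0.39 ± 0.01 had the smallest adjusted p of any member at each age (5.8e-26, 2.3e-21 and 2.8e-26, edgeR). Cdhr4 had the largest C57 effect of all members tested at P5 and at P15, though not in adults, with a CAST share of 27.5% to 46.2%, 33.2% to 41.8% and 34.1% to 45.0%, and effects of -0.69 ± 0.07, -0.72 ± 0.05 and -0.60 ± 0.03. Cdh8 favoured CAST (0.16, 0.22 and 0.29), and Cdh22 (-0.17, -0.32 and -0.24) and Cdh5 (-0.21, -0.31 and -0.12) favoured C57, with Cdh5 not called in adults (edgeR adjusted p = 0.073). Pcdh10 and Pcdh20 were called at no age, with all estimates between -0.08 and 0.03.

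The strain effect changed between ages for few members. From P5 to P15 it rose for 6 of 47 members tested and fell for 2, where 9.65% and 10.2% of 11672 genes were called (19.9% in all). From P15 to adult it rose for 4 of 48 and fell for 2, against 7.78% and 8.38% of 11947 genes (16.2% in all). The members' shares were 12.8%, 4.26%, 8.33% and 4.17%. Pcdhb13 went up and came back, with a CAST share of 54.9 ± 7.9% at first (P5), 65.3 ± 8.0% at P15 and again 54.9 ± 8.6% in adults. Its changes of 0.66 ± 0.17 and -0.62 ± 0.17 share the P15 libraries (edgeR adjusted p = 0.0033 and 0.0045). The same holds for Pcdha11, down by 0.13 at P15 and up by 0.14 in adults.

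In 3 genes the favoured allele switched, with a call on both sides. The share of all genes with such a switch between 2 ages was not computed. Calls at all 3 ages with mixed directions were found for 1 of 47 members and 206 of 11649 genes. The switches are therefore not read as particular to the members. Cdh19 had a CAST share of 39.5% to 48.1% in F1i and 44.6% to 52.1% in F1r at P15, and 49.1% to 57.8% and 49.4% to 59.0% in adults. Its strain effect went from -0.23 ± 0.07 to 0.22 ± 0.04 (change 0.46 ± 0.08, edgeR adjusted p = 1.2e-05). Pcdh9 had a CAST share of 51.1 ± 1.6% at P15 and 46.6 ± 1.2% in adults. Its strain effect began at -0.04 ± 0.03 (P5), was 0.07 ± 0.03 at P15 and -0.19 ± 0.02 in adults, and the last step was -0.26 ± 0.03 (edgeR adjusted p = 5.5e-09). Cdh20 went from 0.09 ± 0.04 at P5 to -0.14 ± 0.04 at P15 (change -0.24 ± 0.06, edgeR adjusted p = 0.00068) and stayed C57-high in adults at -0.13 ± 0.03. The oligodendrocyte markers, whose sums over the ages are given above, moved with age as well, and their part in these switches was not tested.

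Among beta protocadherins, the CAST ratio rose from P5 to P15 for Pcdhb10 (0.55 ± 0.20), Pcdhb19 (0.49 ± 0.13) and Pcdhb5 (0.40 ± 0.11), and from P15 to adult for Pcdhb18 (0.38 ± 0.09) and Pcdhb6 (0.30 ± 0.10). Pcdhb19 lost a C57 lean of -0.45 ± 0.08 at P5 and was not called later (0.04 ± 0.10 and -0.09 ± 0.07). Cdh13 rose by 0.06 ± 0.02 to P15, a small change that its depth of 2690 to 4471 mean counts a library could resolve. With limma on the log2 allele ratio, Pcdh9 and Pcdhb10 from P5 to P15 and Cdh19 from P15 to adult missed the threshold, at adjusted p = 0.060, 0.062 and 0.062.

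A comparison of the crosses asks whether an allele is used differently by the parent it came from. The parental effect is the amount by which that log2 ratio is higher in F1i than in F1r, divided by 2. It was called for 1 of 48 members at P5 (2.08%, beside 2.71% of 12070 genes), for 0 of 48 at P15 (0.742% of 11996 genes) and for 3 of 51 in adults (5.88%, beside 2.71% of 12675 genes). All of the called members are beta protocadherins. At P15, 4 members had an unadjusted p under 0.05, and DESeq2 and limma also called 0.

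Pcdhb20 was called at P5 and in adults. Its CAST share in adults was 34.4% to 50.4% in F1i (median 39.7%) and 43.1% to 53.8% in F1r (median 48.8%). The crosses overlapped by a few libraries. The parental effect was -0.25 ± 0.05 (edgeR adjusted p = 0.0023). At P5 the shares were 32.0% to 48.2% in F1i (median 41.7%) and 44.6% to 51.6% in F1r (median 49.8%), with an effect of -0.20 ± 0.05 (edgeR adjusted p = 0.021), which DESeq2 did not call (adjusted p = 0.65). At P15 they were 36.7% to 44.1% and 42.2% to 53.3%, and the effect of -0.19 ± 0.06 did not pass (edgeR adjusted p = 0.16). The estimate thus had the same sign and a similar size at the 3 ages, each measured in its own libraries.

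Pcdhb12 leaned the opposite way. In adults its CAST share was 51.9% to 70.9% in F1i (median 56.4%) and 29.2% to 54.3% in F1r (median 49.6%), with overlap, and the parental effect was 0.31 ± 0.08 (edgeR adjusted p = 0.017). At P5 it was 0.30 ± 0.10 (edgeR adjusted p = 0.10) and at P15 0.11 ± 0.10 (edgeR adjusted p = 1.0). Pcdhb7 in adults had 48.4% to 61.6% in F1i and 51.5% to 71.1% in F1r, an effect of -0.26 ± 0.07 (edgeR adjusted p = 0.025) that was lost with DESeq2 (adjusted p = 0.080) and limma (adjusted p = 0.056). In Pcdhb7 the estimates at P5 and P15 were -0.10 ± 0.08 and -0.03 ± 0.08. Since the labels do not give the mother of each cross, the effects are not assigned to a maternal or paternal allele.

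**Figure D4:**
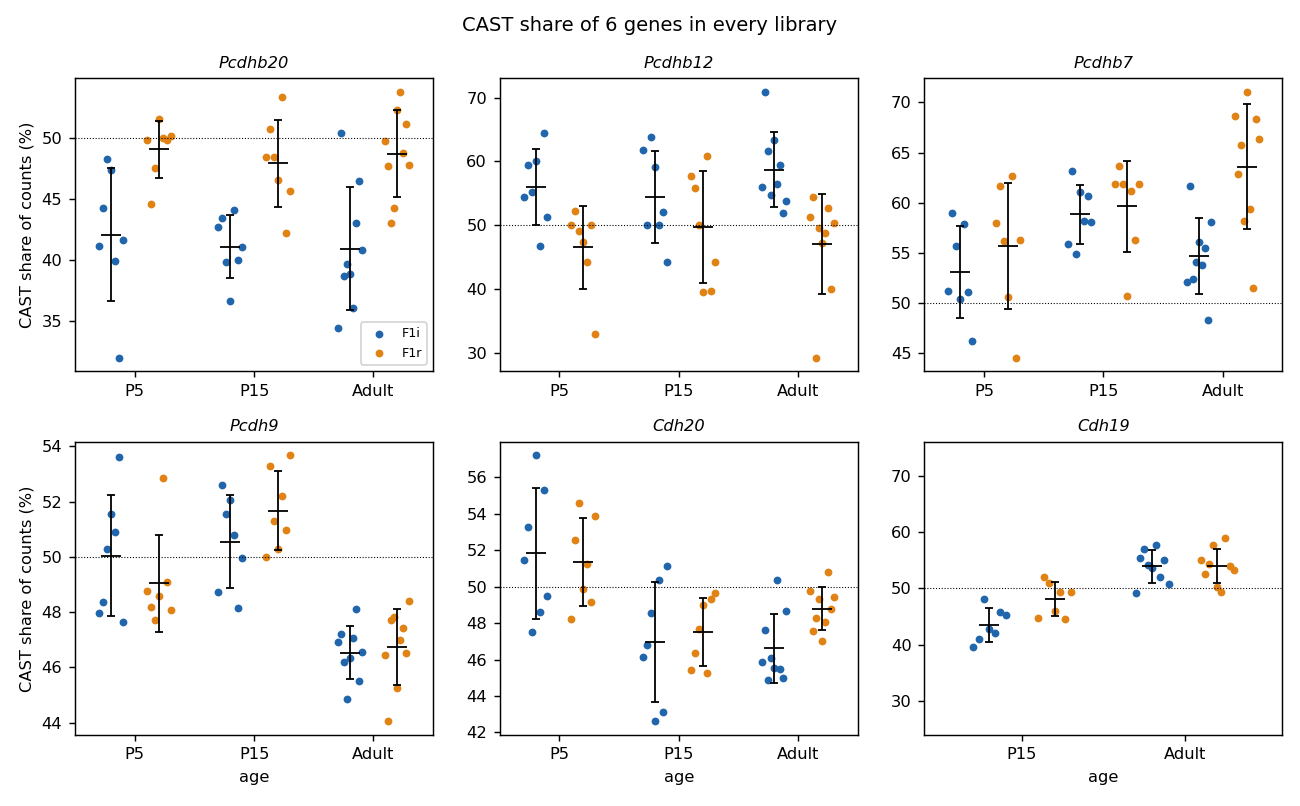
CAST share of the counts (y axis, percent; the axes differ and do not start at 0) of 6 genes by age (x axis), 1 point for each library, blue for F1i and orange for F1r, with the mean ± SD of each cross; the dotted line is 50%. F1i lies below F1r for Pcdhb20 and above it for Pcdhb12, and adult Pcdh9 drops below 50% in both crosses. Cdh19 is shown for P15 and adults only, since P5 libraries had 7 or fewer counts.

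The summed level of both alleles hardly differed between crosses. At P5, 2 of 49 members were called (4.08%, beside 1.17% of 12919 genes), at P15 0 of 50 (0.0467% of 12850 genes) and in adults 0 of 51 (0.111% of 13516 genes). At P15, 0 members had an unadjusted p under 0.05 and DESeq2 also called 0. In adults 5 had an unadjusted p under 0.05 and DESeq2 called 1, Pcdhb20. At P5 Cdhr4 was lower in F1i, 16.9 to 23.4 CPM (median 18.9) against 21.8 to 28.5 in F1r (median 23.4), a log2 difference of -0.31 ± 0.07 (edgeR adjusted p = 0.014). Cdh4 was higher in F1i, 152.5 to 189 CPM (median 175) against 138.9 to 174 (median 158), by 0.18 ± 0.04 (edgeR adjusted p = 0.016; DESeq2 adjusted p = 0.055). The crosses overlap in both genes. Pcdhb20 was lower in adult F1i by 0.30 ± 0.07 without passing the test (edgeR adjusted p = 0.13). It was called with the second label number of the adult libraries as a block (-0.30 ± 0.06, edgeR adjusted p = 0.021) and once the GC trend was removed (-0.32 ± 0.06, edgeR adjusted p = 0.018), as were 0.365% of all genes with that correction.

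Variation of the allele share between libraries was measured as a variance ratio, the observed variance over that of counting alone, with libraries thinned to 3692778 counts. A ratio of 1 means no variation beyond counting. No member was called at any age: 0 of 46 tested for P5, 0 of 46 for P15 and 0 of 43 for adults by a one-sided chi-square test, beside 1.14%, 1.53% and 1.91% of all genes and 0.206%, 0.838% and 0.471% of autosomal genes. The count was also 0 in each of the alternative settings run. An unadjusted p under 0.05 was reached by 3, 3 and 1 members and by 7.89%, 9.25% and 9.58% of all genes. The median ratio was 1.0, 0.94 and 0.99 for members and 0.99, 1.02 and 1.03 for all genes.

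The highest ratios, picked after their values were seen, were those of Cdh22 at P5 (2.39, unadjusted p = 0.0044), Cdh9 at P5 (2.04) and Pcdh1 at P15 (1.97). The smallest adjusted p of any member was 0.22. In deep genes the spread was small in absolute terms. Before thinning, the SD of the CAST share within a cross was 0.687 percentage points for Cdh13 at P5, where counting alone gives 0.755. For Pcdh10 in adults it was 0.727, where counting gives 1.26, while the variance ratio of that gene over both crosses after thinning was 0.94. In the sparse beta gene Pcdhb15 in adults the SD before thinning was 14.4 points, where counting gives 11.3. Pcdhb15 was too sparse for the variance ratio to be tested at any age.

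**Figure D5:**
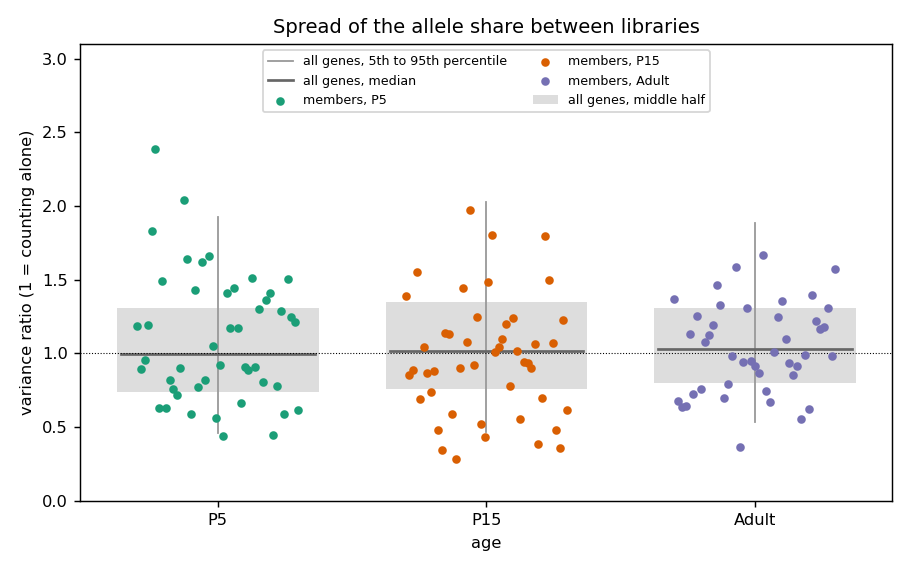
Variance ratio of the allele share between libraries (y axis, starting at 0; 1 is counting alone) for the members tested at each age (points), over the median, the interquartile range and the 5th to 95th percentile of all genes tested (grey). Members spread around the all-gene median of 0.99, 1.02 and 1.03 at P5, P15 and in adults.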

How the data were processed

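The deposited tables hold raw counts that the authors made for each gene, allele and library at each of 3 ages. Per the labels' protocols, RNA was extracted with a Qiagen kit, made into Illumina TruSeq libraries and read as single ends of 50 bases. The submitters' processing notes name Novoalign and the mm9 build. How reads were given to an allele, whether strand was used and how reads with several matches were handled are not given in the sources used here. All 92 count columns were used, and 0 other columns of values per sample.

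Both alleles were added for levels. Symbols, chromosomes, GC content and gene order came from the GENCODE M21 annotation by gene identifier. Tests were edgeR 4.0.16 quasi-likelihood tests in R 4.3.3, with TMM factors, over all genes, with Benjamini-Hochberg adjustment and a threshold of 0.05. Genes for the allele tests had a mean count of 20 or more, and each library had a term of its own. Alternatives used DESeq2 1.42.0, limma 3.58.1, other count minimums and scalings, and sums of adult libraries that share the first label number. The GC correction, and leaving out adult F1i library 1_1, were added after seeing the data. The variance ratio was computed in Python 3.11.15 with numpy 2.4.6 and scipy 1.17.1. The scripts were tested on simulated data.

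Genes are named by rule: the 10 largest called age changes in each direction and step, the 8 largest lasting strain effects in each direction, every member called for a cross effect, a parental effect or a change of strain effect, and examples of a role or list. A gene of the marker lists is not reported here. The members and lists were chosen with earlier results of these data known.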

Additional observations from a re-analysis of the deposited data

Results flagged for a closer look

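The CAST share of the summed counts of all members was 50.6% in adult F1i library 1_2, apart from the other libraries of its group, of which the next lowest was 50.9% and the median 51.0%. It was the only library standing apart among 54 groups of values examined, and chance alone gives about 1 in 20 groups.

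The strain effect differed between ages for 14 pairs of gene and step, by a test of the difference itself. From P5 to P15 the log2 CAST over C57 ratio rose by 0.66 for Pcdhb13, 0.55 for Pcdhb10, 0.49 for Pcdhb19, 0.40 for Pcdhb5, 0.10 for Pcdh9 and 0.058 for Cdh13. It changed by -0.24 for Cdh20 and -0.13 for Pcdha11. From P15 to adult it rose by 0.46 for Cdh19, 0.38 for Pcdhb18, 0.30 for Pcdhb6 and 0.14 for Pcdha11. It changed by -0.62 for Pcdhb13 and -0.26 for Pcdh9. Pcdhb13, Pcdha11 and Pcdh9 appear at both steps with opposite signs, and both steps use the same P15 libraries.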

How the results depend on the processing

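Of 537 values of named genes under the alternatives, 521 kept their direction and their side of the threshold, 14 lost the call, 1 gained it and 1 reversed. The reversed value was the change of Cdh7 from P5 to P15, which was -0.12 with the GC correction. That correction also ended the calls of Cdh10 and Pcdhb18 at the same step, at 0.02 and 0.03. DESeq2 called 1 member for the cross at P5 instead of 2, 17 members for the strain effect at P5 instead of 34, and 0 for the parental effect at P5 instead of 1. The cause was not tested, and the all-gene shares given are those of edgeR. For the adult cross, where the edgeR test called 0 members, 1 was called with DESeq2, 1 with the replicate block, 1 with the GC correction and 1 with the GC correction and the replicate block together, each time Pcdhb20. Adult libraries summed by their first label number gave 2, Pcdhb20 and Pcdh15; the cause was not tested. The labels do not say what a shared library number stands for. Correlations of same-numbered libraries of both crosses, as deviations from their group means, ran from -0.09 to 0.09 at P5, from -0.42 to 0.75 at P15 and, by the second number, from -0.48 to 0.84 in adults, so not every pair deviates together. In adults the median was 0.32 for pairs with the same second number and -0.12 for others, and 8 of 9 F1i libraries correlated best with an F1r library of their own number, which is a hint from the data and not from the design. The level change for each 10 points of GC content had medians of -0.14, 0.13 and 0.11 in adult libraries with second number 1, 2 and 3. The replicate block changed no other call count by over 1.5 times (33 members for P15 against P5, 2 for the P5 cross, 0 for the P15 cross, and 1, 0 and 3 for the parental effects at P5, P15 and in adults). Without adult F1i library 1_1, 39 members were called from P15 to adult and 0 for the adult cross. Cdh5 in adults gained a strain call (-0.14) with a TMM factor for each allele column. Replicates were not left out in turn in other groups, since each group has 7 or 9 libraries. Depth limits the allele shares of sparse beta genes such as Pcdhb15, with a mean of 20.7 counts a library in adults.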
